A study of Danio rerio with 6 samples.

Results

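Nuclei sorted by GFP fluorescence from zebrafish melanomas and the tissue around them were compared between the GFP-positive gate (labelled GFPpos) and the GFP-negative gate (labelled GFPneg). A barcode of the single-nucleus library counted as a nucleus with at least 500 gene UMIs (unique molecular identifiers, each counting 1 captured transcript), at least 200 genes, under 1000000 UMIs and at most 20% mitochondrial UMIs. Of 6794880 barcodes, 13380 passed and 0 were lost to the mitochondrial limit. Each of 6 antibody hashtags names 1 fish (Zebra1, Zebra2 or Zebra3) and 1 gate, and a hashtag was positive at 2 times its median over these nuclei. Exactly 1 hashtag was positive in 9678 of the 13380 nuclei (72.3%), which are the nuclei described here: 4186 labelled GFPpos and 5492 labelled GFPneg. None was positive in 2049 nuclei and several were in 1653, and both kinds were left out.

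The wider study placed spatial array sections, dissociated cells and nuclei of such fish side by side to describe where the tumor meets its surroundings. All nuclei came from 3 adult casper fish of the genotype mitfa-BRAFV600E; p53-/-; mitfa-/-, injected as embryos with mitfa-MITF and mitfa-GFP plasmids. Both gates therefore share the genotype, the injected plasmids are mosaic, and BRAFV600E, MITF and GFP are all driven by the promoter of mitfa, so that GFP was read as tumor and its absence as microenvironment. Tumor and surrounding tissue without head and tail was homogenized, about as many nuclei of either gate were collected, and the nuclei of all 3 fish went into 1 droplet library, so that the 6 fractions, and not 6 libraries, are the units compared.

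In this model mitfa marks the melanocyte lineage, and restored MITF lets BRAFV600E act in cells that can become melanoma and that keep expressing melanin and neural crest genes. A sort on GFP reads the protein, whereas a sequenced nucleus reports the RNA inside it and free RNA of the suspension. The trunk also holds muscle, skin, vessels, blood and immune cells, liver, pancreas, gut and ovary, each with marker transcripts of its own.

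The fractions differed in depth. Nuclei numbered 1888 against 1657 in Zebra1, 1445 against 1355 in Zebra2 and 853 against 2480 in Zebra3 (here and below the GFPpos value comes first in each pair). Median UMIs per nucleus were 3247 against 1765 in Zebra1, 7167 against 1730 in Zebra2 and 2687 against 1649.5 in Zebra3, so nuclei labelled GFPpos were deeper in 3 of 3 fish, by 1.84-, 4.14- and 1.63-fold. The median mitochondrial share was 0.799% against 0.273% in Zebra1, 0.959% against 0.296% in Zebra2 and 0.851% against 0.330% in Zebra3, low in both gates and higher for GFPpos in 3 of 3 fish. Nuclei of very high RNA content, over 20000 UMIs, stood apart. They made up 6.62% against 0.241% of nuclei in Zebra1, 21.0% against 1.11% in Zebra2 and 1.29% against 0.242% in Zebra3. Those over 20000 UMIs numbered 125 against 4 in Zebra1, 304 against 15 in Zebra2 and 11 against 6 in Zebra3, and they held 61.8% against 7.33% in Zebra1, 79.9% against 22.4% in Zebra2 and 9.81% against 9.96% in Zebra3 of the UMIs of their fraction. Results on sums are therefore given over all nuclei and over nuclei of at most 20000 UMIs (the capped set). The hashtag of the Zebra3 GFPneg fraction was the least sharply separated, with 1306 of its 2480 nuclei (52.7%) between 2 and 3 times the median, against 6.16% to 33.1% in the other fractions. Of the nucleus barcodes, 5 also occur among the 1911 cells of dissociated-cell sample E and 1 among the 1085 of sample F.

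**Figure D1:**
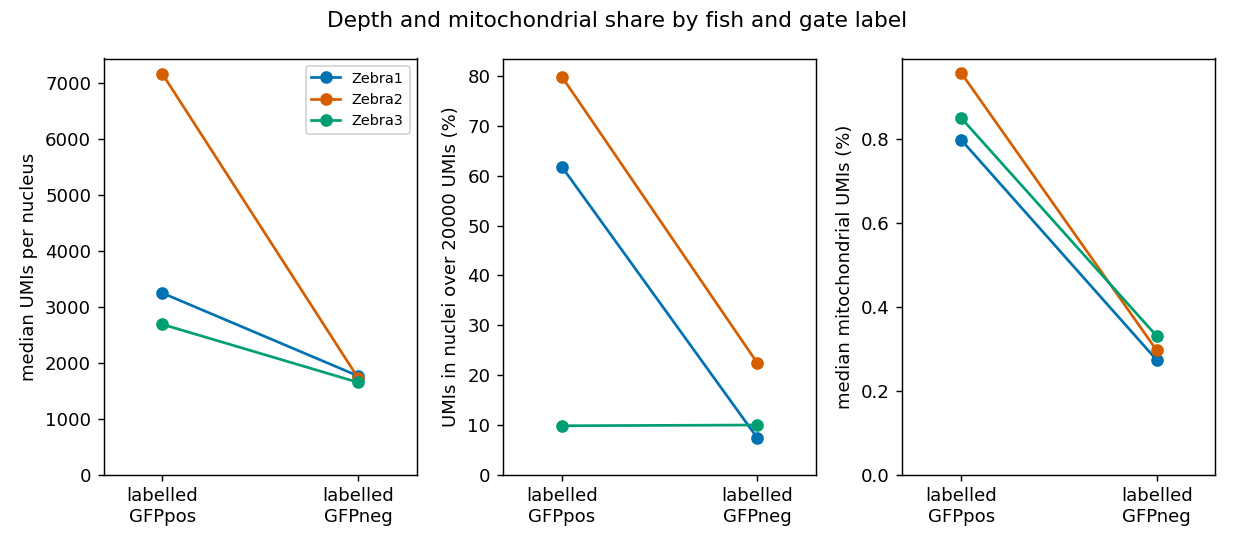
Median UMIs per nucleus, percent of UMIs in nuclei over 20000 UMIs and median percent of mitochondrial UMIs (y axes) for the nuclei labelled GFPpos and GFPneg of each fish (1 colored line per fish). Nuclei labelled GFPpos were deeper and had the higher mitochondrial share in all 3 fish, and in Zebra1 and Zebra2 most of their UMIs came from nuclei over 20000 UMIs.

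Over all nuclei, the transcript of the sorted protein, as a share of UMIs, did not follow the gate labels. EGFP, the green fluorescent protein transgene, was at 70.6 against 213 CPM in Zebra1, 3.43 against 12.2 CPM in Zebra2 and 47.7 against 60.5 CPM in Zebra3 (CPM, UMIs per 1000000 gene UMIs of the fraction), lower in the fraction labelled GFPpos in 3 of 3 fish. Its 95% exact Poisson intervals, which cover counting error only, were 66.9 to 74.5 against 198 to 229 CPM in Zebra1, 2.87 to 4.07 against 8.86 to 16.4 CPM in Zebra2 and 40.5 to 55.8 against 54.2 to 67.5 CPM in Zebra3. BRAF, the human oncogene of the other mitfa-driven transgene, was at 256 against 770.3 CPM in Zebra1, 15.8 against 75.7 CPM in Zebra2 and 191 against 203 CPM in Zebra3, also lower for GFPpos in 3 of 3 fish. Zebra2 had the least of either transgene in both gates. UMIs per nucleus had the other order. For EGFP they were 0.712 against 0.450 in Zebra1, 0.0900 against 0.0325 in Zebra2 and 0.182 against 0.132 in Zebra3. For BRAF they were 2.58 against 1.63 in Zebra1, 0.413 against 0.201 in Zebra2 and 0.727 against 0.442 in Zebra3. Nuclei labelled GFPpos were also deeper in each fish, so this order cannot be told apart from depth. CPM over all nuclei thus goes against the labels and UMIs per nucleus do not. Every direction below is therefore one between nuclei labelled GFPpos and nuclei labelled GFPneg. It is not one between nuclei shown to hold more or less of the transgene.

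Over the 3 fish neither transgene passed the test, edgeR's quasi-likelihood test with the fish as a block and Benjamini-Hochberg adjustment over all genes. On simulated counts this fit called 2 of 68 genes changed by a log2 of 1, so a change of that size would seldom pass. The log2 fold change of GFPpos over GFPneg was -0.72 ± 0.63 (SE) for BRAF (adjusted p = 0.374) and -0.65 ± 0.58 for EGFP (adjusted p = 0.378). When Zebra3 was left out both were called lower, at -1.13 for BRAF (edgeR adjusted p = 0.00800) and -0.92 for EGFP (edgeR adjusted p = 0.0249). That fit called 6314 genes higher and 6704 lower of 19900 tested, so a call in it does not set the transgenes apart. In the capped set EGFP was at 178 against 229.6 CPM in Zebra1, 11.4 against 15.7 CPM in Zebra2 and 52.8 against 67.2 CPM in Zebra3, still lower for GFPpos in each fish by CPM. Its exact Poisson intervals, which cover counting error only, overlapped between gates in Zebra2 and Zebra3 and not in Zebra1. Against that order by CPM, the fitted log2 fold change was 0.28 ± 0.24 (edgeR adjusted p = 0.376). The sign differs because the fit scales fractions by TMM (trimmed mean of M-values), which here moved GFPpos over GFPneg up by 0.48 to 1.01 on the log2 scale. With library totals in place of TMM it was -0.39 (edgeR adjusted p = 0.279). The order by CPM turned for EGFP when nuclei rich in liver or pancreas transcripts were also left out, a choice made after the data were seen. EGFP was then at 305 against 257 CPM in Zebra1, 21.6 against 16.7 CPM in Zebra2 and 77.7 against 72.8 CPM in Zebra3, higher for GFPpos in 3 of 3 fish. Only in Zebra1 was this EGFP difference beyond counting error, with exact Poisson intervals of 288 to 323 against 239 to 276 CPM. The intervals overlapped in Zebra2 (17.0 to 27.0 against 12.1 to 22.5 CPM) and Zebra3 (65.6 to 91.4 against 65.0 to 81.1 CPM). BRAF was then at 1063 against 918 CPM in Zebra1, 90.2 against 99.5 CPM in Zebra2 and 299.6 against 239 CPM in Zebra3, higher in 2 of 3. The fitted log2 fold changes were 0.40 for BRAF and 0.49 for EGFP (edgeR adjusted p = 0.123 and 0.115), not past the threshold.

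Counted by nuclei, an EGFP UMI was found in 27.0% against 26.1% in Zebra1, 3.94% against 2.14% in Zebra2 and 10.1% against 7.86% in Zebra3. These shares were higher in the deeper GFPpos-labelled fraction of each fish. After each nucleus was thinned to 500 UMIs they were 6.94% against 8.21% in Zebra1, 0.484% against 0.812% in Zebra2 and 2.58% against 2.58% in Zebra3, higher for GFPpos in no fish. The background is the share in nuclei rich in liver transcripts, which should lack a mitfa-driven gene. It was 8.90% against 2.96% in Zebra1, 0.868% against 1.67% in Zebra2 and 2.31% against 1.40% in Zebra3, at median depths of 3644.5 against 2195 UMIs in Zebra1, 7876 against 2446.5 UMIs in Zebra2 and 2720 against 2391 UMIs in Zebra3. The share over all nuclei was above this background in every fraction, by the least in Zebra2 GFPneg. There the background was 1 of 60 nuclei, with an exact binomial interval of 0.0422% to 8.94%. It spans the interval over all Zebra2 GFPneg nuclei (1.44% to 3.06%), so EGFP above background is not shown in this fraction. In every other fraction the exact binomial intervals, which cover counting error only, did not overlap. In barcodes under 100 UMIs, which report free RNA, EGFP was at 68.5 CPM and BRAF at 229 CPM. By CPM over all nuclei, both transgenes were below these levels in both gates of Zebra2 and Zebra3. Zebra1 GFPpos was near them, with EGFP at 70.6 CPM and BRAF at 256 CPM, and Zebra1 GFPneg was above them.

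The transgenes did stand out in nuclei with pigment markers (chosen by melanin genes, as defined further down, and not by the transgenes). There EGFP was at 552 against 429 CPM in Zebra1, 307 against 249 CPM in Zebra2 and 165 against 248 CPM in Zebra3. BRAF was at 1847 against 1492 CPM in Zebra1, 725 against 748 CPM in Zebra2 and 618 against 751 CPM in Zebra3. All 6 fractions were above the level of free RNA for both transgenes, and neither gate was the higher one in all fish.

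**Figure D2:**
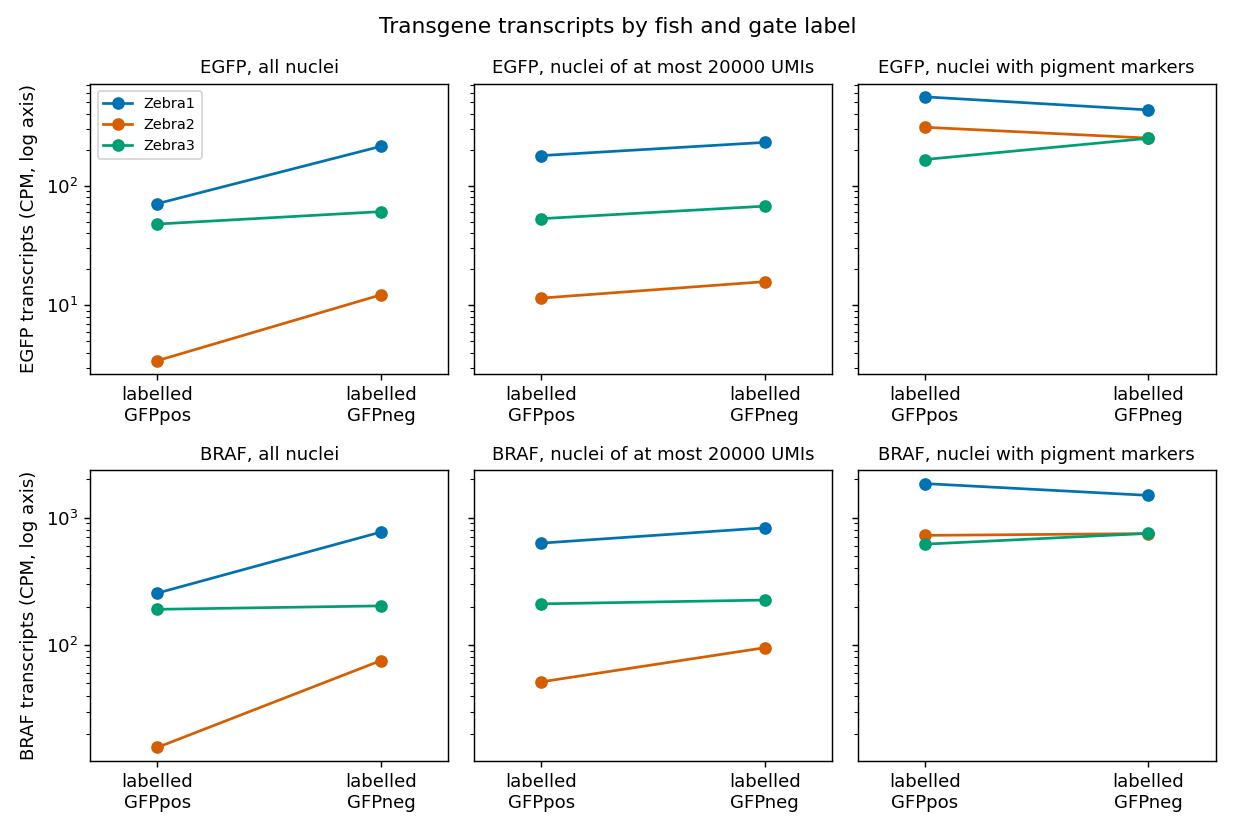
EGFP and BRAF transcripts (y axis, CPM, log scale) in the fractions labelled GFPpos and GFPneg of each fish (1 colored line per fish), over all nuclei, nuclei of at most 20000 UMIs and nuclei with pigment markers. In the first 2 sets each fish is lower in GFPpos, and in nuclei with pigment markers both gates are high, with EGFP between 165 and 552 CPM.

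Across all genes, nuclei labelled GFPpos were richer in transcripts of exocrine pancreas and liver and poorer in those of lymphocytes and blood vessels, among other lists given below. Of 17546 genes tested over all nuclei, 704 were called (4.01%), of which 28 were called higher (0.16% of genes tested) and 676 lower (3.85%) at an edgeR adjusted p of 0.05, and all 704 had the same direction in 3 of 3 fish after TMM scaling. The median log2 fold change was 2.35 for the 28 and -2.48 for the 676, against -0.09 for all genes tested. In the capped set 2917 of 17314 genes were called higher (16.8%) and 2345 lower (13.5%), including 28 of the 28 and 670 of the 676. Below, list genes said to have risen or fallen are those called by edgeR. Lack of overlap between gates, where stated, describes the values of that gene alone. The share of all genes without overlap is not given, so it adds no support to a call. In sums like these, fewer nuclei of a type and less RNA per nucleus cannot be told apart. Depth moved with the gate in all 3 fish. After each nucleus was thinned to 500 UMIs, 1654 genes were higher and 931 lower of 10517 tested. Of the 704 calls 475 were tested there, and 23 of the 28 and 348 of the 676 were still called. The mitochondrial share also moved with the gate, and its part in the differences was not tested.

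These counts depended on the fish and on the scaling. Over all nuclei, edgeR called no gene without Zebra1 (590 at an unadjusted p under 0.05) or without Zebra2 (1295), against 6314 higher and 6704 lower without Zebra3. In the capped set 1758 to 3119 genes were higher and 1308 to 2190 lower when 1 fish was left out. Without the fish as a block, edgeR called 0 genes over all nuclei (4949 at an unadjusted p under 0.05), where DESeq2 with the block called 3300 higher and 3366 lower, and it called 197 higher and 18 lower in the capped set. Library totals in place of TMM moved the median of all genes to -0.70 over all nuclei (3 higher, 2425 lower) and, in the capped set, from -0.01 to -0.71 (660 higher, 7302 lower).

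Liver transcripts were higher for GFPpos in every fish, by a like factor in the capped set. Summed over the liver list they were at 67243 against 13759.5 CPM in Zebra1, 52489 against 15859 CPM in Zebra2 and 49375 against 9872 CPM in Zebra3 in the capped set, where every GFPpos-labelled fraction was above every GFPneg-labelled one. The ratios were 4.89, 3.31 and 5.00, and over all nuclei 2.11, 1.07 and 4.97. Free RNA held 20337 CPM of this list, above all 3 GFPneg-labelled fractions of the capped set and below all 3 GFPpos-labelled ones. All 28 of 28 list genes tested were called higher in the capped set, at a median log2 fold change of 2.51. Over all nuclei edgeR called 3 of 28 higher (apoa1b, apoa2 and serpina1l), at a median of 1.50. There all 28 had a fold above 0, with 16 higher at an unadjusted p under 0.05 and 21 called higher by DESeq2. With library totals 28 of them were still called in the capped set, 25 to 28 when 1 fish was left out and 12 without the fish block.

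Among the liver genes of the capped set, apoa1b, an apolipoprotein of high-density lipoprotein, was at 12922 against 1999 CPM in Zebra1, 9188 against 1762 CPM in Zebra2 and 11242 against 1776 CPM in Zebra3 (log2 fold change 3.27 ± 0.47 (SE), adjusted p = 1.65e-04 by edgeR). All 3 GFPpos-labelled values of apoa1b were above all 3 GFPneg-labelled ones. The liver fatty acid binding protein gene fabp10a was at 6274 against 1147 CPM in Zebra1, 4789 against 1233 CPM in Zebra2 and 3268 against 733 CPM in Zebra3 (log2 fold change 2.88 ± 0.40 (SE), adjusted p = 1.40e-04 by edgeR). The iron carrier gene tfa (transferrin) was at 9199 against 2234 CPM in Zebra1, 7972 against 2525 CPM in Zebra2 and 5620.5 against 1230.4 CPM in Zebra3 (log2 fold change 2.65 ± 0.43 (SE), adjusted p = 4.70e-04 by edgeR). Neither fabp10a nor tfa overlapped between gates, and apoa2, the partner apolipoprotein, had a log2 fold change of 3.15 ± 0.46 (edgeR adjusted p = 2.08e-04).

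Digestive enzymes of the exocrine pancreas were higher too. Their list summed to 21036 against 5770.3 CPM in Zebra1, 18124 against 5471 CPM in Zebra2 and 31429.5 against 3396 CPM in Zebra3 in the capped set, and to 10271 against 5360.1 CPM in Zebra1, 7782 against 4453 CPM in Zebra2 and 51599 against 3075 CPM in Zebra3 over all nuclei, where Zebra3 had by far the widest gap. Of 19 list genes tested, 19 were called higher in the capped set (median log2 fold change 2.95). Over all nuclei edgeR called 7 higher (median 2.42), among them ctrb1, try, cpa5 and cel.2. There 19 were higher at an unadjusted p under 0.05 and 19 by DESeq2. The capped count was 19 with library totals, 19 with any 1 fish left out and 17 without the fish block.

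The chymotrypsinogen gene ctrb1 was the largest rise over all nuclei, at 1845 against 856 CPM in Zebra1, 1216 against 642 CPM in Zebra2 and 9384 against 506 CPM in Zebra3 (log2 fold change 2.61 ± 0.65 (SE), adjusted p = 0.0358 by edgeR). The trypsin-family gene prss59.1 was at 1494 against 823 CPM in Zebra1, 1265 against 622 CPM in Zebra2 and 9969 against 495 CPM in Zebra3 (log2 fold change 2.59 ± 0.66 (SE), adjusted p = 0.0363 by edgeR). All 3 GFPpos-labelled values lay above all 3 GFPneg-labelled ones for both. All 10 of the largest rises over all nuclei had log2 fold changes between 2.45 and 2.61, and they included the protease genes try and prss59.2, the carboxypeptidase gene cpa5, the bile salt lipase gene cel.2 and the deoxyribonuclease gene dnase1. The copies prss59.1 and prss59.2 are close relatives of try, and the counting may divide their reads in ways that cannot be followed here.

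Intestinal genes passed the test in the capped set and not over all nuclei. The intestine list summed to 5056 against 2438 CPM in Zebra1, 3183 against 2691 CPM in Zebra2 and 6824 against 2708 CPM in Zebra3 in the capped set, and 15 of 19 genes tested rose (median log2 fold change 1.26), against 0 of 19 over all nuclei (0 higher at an unadjusted p under 0.05, 0 by DESeq2, median 0.23). With library totals 7 were called, 13 to 15 with 1 fish left out and 2 without the block. The intestinal fatty acid binding protein gene fabp2 was at 518 against 191 CPM in Zebra1, 274 against 206 CPM in Zebra2 and 573 against 272 CPM in Zebra3 (log2 fold change 1.66 ± 0.28 (SE), adjusted p = 5.30e-04 by edgeR). The galectin gene lgals2b was at 867 against 294 CPM in Zebra1, 1000.1 against 535 CPM in Zebra2 and 1694 against 490.0 CPM in Zebra3 (log2 fold change 2.11 ± 0.31 (SE), adjusted p = 2.33e-04 by edgeR). Both were higher for GFPpos in 3 of 3 fish, whereas the chitinase gene chia.2, which also passed the test (1.23 ± 0.31), was lower by CPM in Zebra2.

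Lymphocyte genes went the other way. The list of T and NK cells summed to 206 against 503 CPM in Zebra1, 139 against 585 CPM in Zebra2 and 349 against 1009 CPM in Zebra3 in the capped set, lower for GFPpos in every fish. Of its 18 genes tested, 13 fell there and 0 rose (median log2 fold change -1.27), and over all nuclei 6 of 17 fell (bcl11ba, cd4-1, il2rb, lck, sla2 and tcf7, median -2.17). The T lineage factor gene bcl11ba was at 13.8 against 58.3 CPM in Zebra1, 10.4 against 72.8 CPM in Zebra2 and 20.1 against 82.0 CPM in Zebra3 (log2 fold change -1.62 ± 0.23 (SE), adjusted p = 1.67e-04 by edgeR). The adaptor gene sla2, which dampens T cell receptor signaling, was at 11.4 against 40.7 CPM in Zebra1, 5.13 against 56.1 CPM in Zebra2 and 17.4 against 76.9 CPM in Zebra3 (log2 fold change -1.76 ± 0.27 (SE), adjusted p = 3.01e-04 by edgeR). Neither overlapped between gates, while nkl.2, an NK-lysin gene, did not pass the test (0.91 ± 0.37, edgeR adjusted p = 0.0711). With 1 fish left out 9 to 11 list genes were lower in the capped set, and without the block 1.

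Of the B cell list, 5 of 7 genes tested fell in the capped set (median log2 fold change -1.16) and 3 of 7 over all nuclei (blnk, CD37 and pax5, median -2.21). The B lineage factor gene pax5 was at 119 against 447 CPM in Zebra1, 5.79 against 28.2 CPM in Zebra2 and 4.09 against 68.1 CPM in Zebra3 in the capped set (log2 fold change -1.87 ± 0.35 (SE), adjusted p = 0.00138 by edgeR). Zebra1 held far more pax5 than the other fish in both gates, so its values overlap between gates across fish although each fish was lower for GFPpos. The B cell receptor adaptor gene blnk was at 15.6 against 50.9 CPM in Zebra1, 6.31 against 43.6 CPM in Zebra2 and 19.4 against 78.5 CPM in Zebra3 (log2 fold change -1.47 ± 0.25 (SE), adjusted p = 5.71e-04 by edgeR), without overlap. The count was 4 to 5 with 1 fish left out and 0 without the block.

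Endothelial genes were lower as a group. The list summed to 106 against 243 CPM in Zebra1, 71.4 against 332 CPM in Zebra2 and 109 against 462 CPM in Zebra3 in the capped set, with 11 of 21 genes tested lower (median log2 fold change -1.02), and over all nuclei 7 of 21 were lower (median -1.86). The vascular growth factor receptor gene flt1 was at 6.89 against 29.9 CPM in Zebra1, 1.84 against 39.3 CPM in Zebra2 and 7.16 against 32.9 CPM in Zebra3 (log2 fold change -2.14 ± 0.35 (SE), adjusted p = 4.69e-04 by edgeR). The endothelial ETS factor gene fli1b was at 8.95 against 31.8 CPM in Zebra1, 5.92 against 42.5 CPM in Zebra2 and 9.89 against 43.6 CPM in Zebra3 (log2 fold change -1.57 ± 0.27 (SE), adjusted p = 6.11e-04 by edgeR). For flt1 and fli1b the gates did not overlap. The called count was 8 to 13 with 1 fish left out and 1 without the block.

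Other blood and nerve sheath lists held falls as well, beside 16.8% of all genes called higher and 13.5% lower in the capped set. In the capped set 5 of 9 erythrocyte genes tested fell (median -0.86), among them slc4a1a, the red cell anion exchanger gene, at 23.7 against 59.6 CPM in Zebra1, 11.3 against 73.2 CPM in Zebra2 and 21.8 against 153 CPM in Zebra3 (log2 fold change -1.57 ± 0.28 (SE), adjusted p = 0.00103 by edgeR). The globin gene hbaa1 did not pass (-0.13 ± 0.29, edgeR adjusted p = 0.761). Of the macrophage list 4 of 17 fell (c1qb, havcr1, mpeg1.2 and spi1b, median -0.42), while the abundant cd74a, the invariant chain of antigen presentation, did not pass (-0.24 ± 0.29, edgeR adjusted p = 0.551). Of the neutrophil list 2 rose (cfl1l and mpx) and 1 fell (csf3r) of 10, near the shares of all genes and so no result about this list. Of the myelinating glia list 4 of 10 fell (egr2b, mag, mpz and plp1b, median -0.78). The myelin-associated glycoprotein gene mag was at 0.413 against 3.70 CPM in Zebra1, 0.263 against 5.71 CPM in Zebra2 and 0 against 7.81 CPM in Zebra3 (log2 fold change -3.45 ± 0.63 (SE), adjusted p = 0.00109 by edgeR), under 10 CPM in any fraction and without a UMI in Zebra3 GFPpos, so that its fitted fold is no bound. None of these falls in the erythrocyte, macrophage and glia lists was called without the fish block. With 1 fish left out 2 to 3 erythrocyte, 1 to 6 macrophage and 3 to 4 glia genes were lower, and without nuclei rich in liver or pancreas transcripts 1, 2 and 4.

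**Figure D3:**
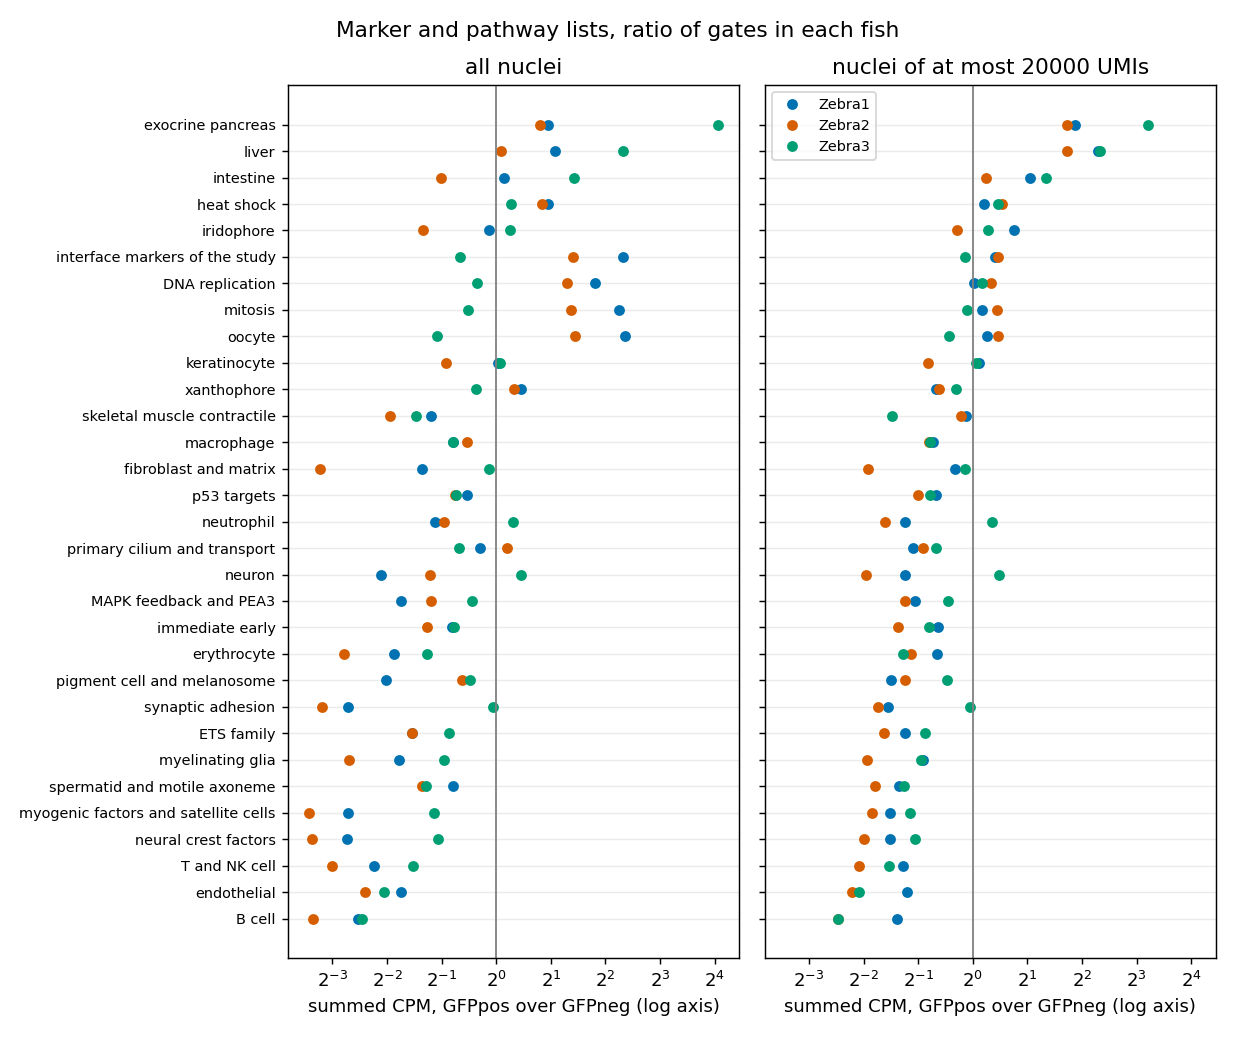
Ratio of summed CPM, GFPpos over GFPneg (x axis, log scale), for each gene list (rows) and fish (colors), over all nuclei and over nuclei of at most 20000 UMIs. Liver and exocrine pancreas lie above 1 in every fish in both panels, as does heat shock. The T and NK cell, B cell and endothelial lists lie below 1 in every fish. Other lists do so too in both panels, among them neural crest factors, macrophage and p53 targets. These ratios are not scaled by TMM, and without that scaling the median log2 fold change of all genes in the capped set was -0.71.

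Pigment cell genes were not higher in the nuclei labelled GFPpos. The pigment cell and melanosome list summed to 573 against 2317 CPM in Zebra1, 406 against 625 CPM in Zebra2 and 1416 against 1979 CPM in Zebra3 over all nuclei, and to 876 against 2466 CPM in Zebra1, 284 against 674 CPM in Zebra2 and 1551 against 2145 CPM in Zebra3 in the capped set, lower for GFPpos in 3 of 3 fish. No gene of 17 tested was called in either direction over all nuclei (6 were lower and 0 higher at an unadjusted edgeR p under 0.05, DESeq2 called 0 higher and 6 lower). In the capped set 5 of 17 fell (kita, oca2, rab27a, slc45a2 and trpm1b, median -0.24). These falls rested on Zebra1 and Zebra2, with 0 higher and 0 lower without Zebra1, 0 higher and 1 lower without Zebra2, 0 higher and 5 lower without Zebra3 and 0 higher and 0 lower without the fish block. Without nuclei rich in liver or pancreas transcripts as well, 1 gene was higher and 1 lower (median -0.04). The melanocyte channel gene trpm1b was at 279 against 1058 CPM in Zebra1, 29.3 against 124 CPM in Zebra2 and 321 against 511 CPM in Zebra3 (log2 fold change -0.87 ± 0.29 (SE), adjusted p = 0.0347 by edgeR). The receptor gene kita, which melanocytes need to migrate and survive, was at 101 against 372 CPM in Zebra1, 8.42 against 53.2 CPM in Zebra2 and 65.8 against 99.3 CPM in Zebra3. The melanosomal enzyme gene tyrp1b, at 139 against 292 CPM in Zebra1, 43.0 against 82.5 CPM in Zebra2 and 274 against 279.9 CPM in Zebra3, did not pass (0.01 ± 0.26, edgeR adjusted p = 0.983).

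Neural crest factors showed the same order. Of these factors 4 of 12 tested fell in the capped set (pax3a, tfap2c, tfec and zeb2a, median -0.73, 2 to 5 with 1 fish left out and 0 without the block) and over all nuclei 1 of 11 (tfec, median -1.55). The crest and muscle precursor factor gene pax3a was at 334 against 1211 CPM in Zebra1, 27.6 against 108 CPM in Zebra2 and 160.3 against 322 CPM in Zebra3 (log2 fold change -0.92 ± 0.27 (SE), adjusted p = 0.0190 by edgeR). Feedback genes of the MAPK pathway, through which BRAF signals, held 1 rise (etv5b) and 1 fall (spry4) of 18 tested in the capped set, beside 30.4% of all genes called there. The ERK phosphatase gene dusp6 was at 214 against 372 CPM in Zebra1, 36.6 against 67.1 CPM in Zebra2 and 112 against 139.8 CPM in Zebra3 (0.02 ± 0.24, edgeR adjusted p = 0.956). Of the other pigment lineages, iridophore genes split into 2 higher (paics and pnp4b) and 2 lower (alx4a and ltk) of 10, and xanthophore genes into 3 higher (pax7b, scarb1 and xdh) and 1 lower (csf1ra) of 9. These small counts stand beside 16.8% of all genes called higher and 13.5% lower, and are not results about the 2 lineages. With library totals all these lists moved down, to 0 higher and 11 lower for MAPK feedback, 0 higher and 4 lower for iridophore, 0 higher and 4 lower for xanthophore and 0 higher and 10 lower for pigment genes. Of all 17314 genes 660 were then higher and 7302 lower, so a move down under that scaling was general and not particular to these lists.

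Muscle genes held calls in both directions. Of 30 contractile genes tested in the capped set 7 rose, among them ckmb, tpma and the parvalbumin gene pvalb4, and 7 fell, among them neb, obscnb, ttn.1 and ttn.2 (median 0.05). Of all genes 16.8% were called higher there and 13.5% lower, so a split of calls is not particular to muscle. The calcium-binding parvalbumin gene pvalb4 was at 153 against 118 CPM in Zebra1, 806 against 575 CPM in Zebra2 and 203 against 263 CPM in Zebra3 (log2 fold change 0.86 ± 0.31 (SE), adjusted p = 0.0446 by edgeR), so Zebra3 ran against the fitted direction by CPM. The giant sarcomere protein gene ttn.2 was at 102 against 208 CPM in Zebra1, 416 against 1713 CPM in Zebra2 and 116 against 1788 CPM in Zebra3 (log2 fold change -1.60 ± 0.47 (SE), adjusted p = 0.0184 by edgeR), lower for GFPpos in 3 of 3 fish. Over all nuclei 0 rose and 4 fell (myom2a, obscnb, ttn.1 and ttn.2), and with library totals in the capped set 0 rose and 12 fell, so that no rise among muscle genes held under that scaling. Of all 17314 genes 660 were higher and 7302 lower under it. The split turned on the fish, at 1 higher and 8 lower without Zebra1, 1 higher and 8 lower without Zebra2, 13 higher and 1 lower without Zebra3 and 0 higher and 0 lower without the fish block.

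The keratinocyte list held calls in both directions and the fibroblast and matrix list held falls only. Beside them, 16.8% of all genes were called higher and 13.5% lower in the capped set. The keratinocyte counts and the fibroblast and matrix falls lie near these shares and are not results about the 2 lists. Of the keratinocyte list 5 genes rose (krt17, krt4, krt92, krt94 and krt97) and 3 fell (cldni, dsc2l and tp63) of 25 tested in the capped set. The epidermal keratin gene krt4 was at 263 against 131 CPM in Zebra1, 165 against 149 CPM in Zebra2 and 558 against 230.1 CPM in Zebra3 (edgeR adjusted p = 7.81e-04). Fibroblast and matrix genes numbered 2 falls (col5a2a and pdgfra) and 0 rises of 18 (median -0.21), and the abundant col5a1 did not pass (0.55 ± 0.33, edgeR adjusted p = 0.216). With library totals the keratinocyte counts were 1 higher and 7 lower, beside 660 higher and 7302 lower of all 17314 genes.

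Oocyte, mitosis and replication sums differed with the deepest nuclei in or out. Over all nuclei the oocyte list, with egg coat genes such as zp2.5, summed to 21866 against 4279.8 CPM in Zebra1, 31222 against 11426 CPM in Zebra2 and 2512 against 5300.1 CPM in Zebra3, higher for GFPpos in Zebra1 and Zebra2 and lower in Zebra3. In the capped set it was at 2309 against 1933 CPM in Zebra1, 5466 against 3959.9 CPM in Zebra2 and 1227 against 1668 CPM in Zebra3, with the same order and smaller gaps. Of its genes 0 of 18 passed over all nuclei (13 higher at an unadjusted p under 0.05, 16 by DESeq2, median 1.62) and 7 of 17 in the capped set (median 0.79). Among the mitosis genes 0 of 24 rose over all nuclei (19 higher at an unadjusted p under 0.05, 19 by DESeq2) and 15 of 23 in the capped set. Their sum was at 4036 against 847 CPM in Zebra1, 4816 against 1868 CPM in Zebra2 and 714 against 1021 CPM in Zebra3 over all nuclei. In the capped set it was at 505 against 452 CPM in Zebra1, 1050 against 769 CPM in Zebra2 and 458 against 495 CPM in Zebra3. Zebra3 was thus lower for GFPpos in both sets. Of the DNA replication genes 0 of 20 rose over all nuclei (14 higher at an unadjusted p under 0.05, 16 by DESeq2) and 13 of 20 in the capped set. They summed to 2394 against 681 CPM in Zebra1, 2915 against 1195 CPM in Zebra2 and 528 against 670 CPM in Zebra3 over all nuclei. Capped, the sums were 466 against 457 CPM in Zebra1, 703 against 557 CPM in Zebra2 and 404 against 362 CPM in Zebra3. Of all genes 0.16% were called higher over all nuclei and 16.8% in the capped set. The sliding clamp gene pcna was at 48.7 against 40.7 CPM in Zebra1, 80.5 against 61.8 CPM in Zebra2 and 68.5 against 35.0 CPM in Zebra3 (log2 fold change 1.23 ± 0.23 (SE), adjusted p = 0.00148 by edgeR). With library totals the capped counts of rises were 0 for oocyte, 0 for mitosis and 0 for replication genes, beside 660 of all 17314 genes. Without Zebra1 or Zebra2 no oocyte gene was called. Mitosis rises numbered 8 without Zebra1, 6 without Zebra2 and 17 without Zebra3, and replication rises 9 without Zebra1, 5 without Zebra2 and 14 without Zebra3. Without the fish block none of the 3 lists held a rise.

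The interface list, which the study drew from its own sections and cells of this series and which is therefore no independent evidence of a direction, was higher for GFPpos in Zebra1 and Zebra2 and lower in Zebra3. It summed to 1574 against 317 CPM in Zebra1, 2011 against 756 CPM in Zebra2 and 257 against 409 CPM in Zebra3 over all nuclei, and 0 of 8 genes passed there (7 higher at an unadjusted p under 0.05, 8 by DESeq2), against 5 of 8 in the capped set (haus4, knstrn, stmn1a, stra13 and tpx2) and 0 with library totals. The capped count was 1 without Zebra1, 2 without Zebra2 and 6 without Zebra3, and 0 without the fish block. The microtubule regulator gene stmn1a was at 109.6 against 79.0 CPM in Zebra1, 222 against 158 CPM in Zebra2 and 77.7 against 75.3 CPM in Zebra3 (log2 fold change 1.03 ± 0.26 (SE), adjusted p = 0.00737 by edgeR). The cilium, ETS and heat shock counts stand beside 16.8% of all genes called higher and 13.5% lower in the capped set, and are not results about these lists. Primary cilium genes held 0 rises and 3 falls (arl13b, bbs9 and ift81) of 23 in the capped set. Of the ETS transcription factor family 2 rose (elf3 and etv5b) and 6 fell (ef1, elk3, fli1a, fli1b, spi1a and spi1b) of 23, and fli1a, fli1b, spi1a and spi1b are also vessel or myeloid genes. Heat shock genes gave 4 rises (hspa5, hspa8, hspd1 and hspe1) and 1 fall (hsph1) of 16. With library totals the counts were 1 higher and 14 lower for ETS, 0 higher and 10 lower for cilium and 2 higher and 4 lower for heat shock genes. Of all 17314 genes 660 were then higher and 7302 lower.

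The largest falls over all nuclei were of genes at low levels. Among the 10, with log2 fold changes from -4.13 to -3.66, the netrin gene ntn5, of a family of secreted guidance cues, was at 0.630 against 8.01 CPM in Zebra1, 0.449 against 41.0 CPM in Zebra2 and 4.31 against 53.3 CPM in Zebra3 (log2 fold change -4.00 ± 0.70 (SE), adjusted p = 0.0336 by edgeR). The kinase gene dyrk4 was at 0.263 against 6.86 CPM in Zebra1, 1.48 against 32.1 CPM in Zebra2 and 1.85 against 43.5 CPM in Zebra3 (log2 fold change -3.92 ± 0.63 (SE), adjusted p = 0.0336 by edgeR). A collagen XVIII gene named COL18A1 (1 of many) was at 0.210 against 5.15 CPM in Zebra1, 0.449 against 17.5 CPM in Zebra2 and 0.615 against 11.1 CPM in Zebra3 (log2 fold change -4.13 ± 0.72 (SE), adjusted p = 0.0336 by edgeR). None of these 3 overlapped between gates, and of the 676 genes called lower 50 were under 10 CPM in all 6 fractions. Among the largest rises of the capped set were apoc1, an apolipoprotein gene, and rnasel2, a ribonuclease gene, at log2 fold changes of 3.33 ± 0.45 and 3.39 ± 0.36.

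Liver, pancreas and lymphocyte markers were also counted by nuclei in place of UMIs. After thinning to 500 UMIs, nuclei with at least 31 liver UMIs (3 times what the list's share of free RNA would give) made up 32.6% against 7.85% in Zebra1, 30.9% against 4.58% in Zebra2 and 29.8% against 5.52% in Zebra3, a mean difference of 25.1 ± 1.06 percentage points (SD, n = 3 fish). Nuclei with at least 19 pancreas UMIs made up 4.13% against 0.724% in Zebra1, 7.47% against 2.21% in Zebra2 and 5.63% against 1.29% in Zebra3. Nuclei with at least 4 intestine UMIs made up 12.1% against 6.10% in Zebra1, 10.1% against 7.53% in Zebra2 and 19.0% against 6.37% in Zebra3. The share was higher among nuclei labelled GFPpos in 3 of 3 fish for each kind. With 3 fish an exact two-sided sign-flip permutation test cannot give a p under 0.25, so these shares are described and not tested. The cut of 3 times free RNA was chosen after the data were seen. At 2 UMIs, fewer than that share of free RNA would give, the liver shares were 64.8% against 43.6% in Zebra1, 63.7% against 56.9% in Zebra2 and 67.9% against 39.3% in Zebra3.

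Nuclei with at least 2 UMIs of the T and NK cell list made up 1.80% against 6.76% in Zebra1, 1.45% against 9.74% in Zebra2 and 3.75% against 11.4% in Zebra3, a mean difference of -6.97 ± 1.77 points (SD, n = 3 fish). Nuclei with 2 endothelial UMIs made up 0.794% against 2.96% in Zebra1, 0.761% against 4.43% in Zebra2 and 0.821% against 4.92% in Zebra3. Both shares were lower among nuclei labelled GFPpos in 3 of 3 fish, and that of nuclei with B cell markers differed by -3.94 ± 1.07 points. Pigment marked nuclei made up 13.1% against 24.0% in Zebra1, 2.21% against 5.46% in Zebra2 and 14.8% against 14.8% in Zebra3, a mean difference of -4.73 ± 5.56 points, smaller than its SD. The share of nuclei with muscle markers at 3 times free RNA differed by 1.55 ± 1.64 points.

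**Figure D4:**
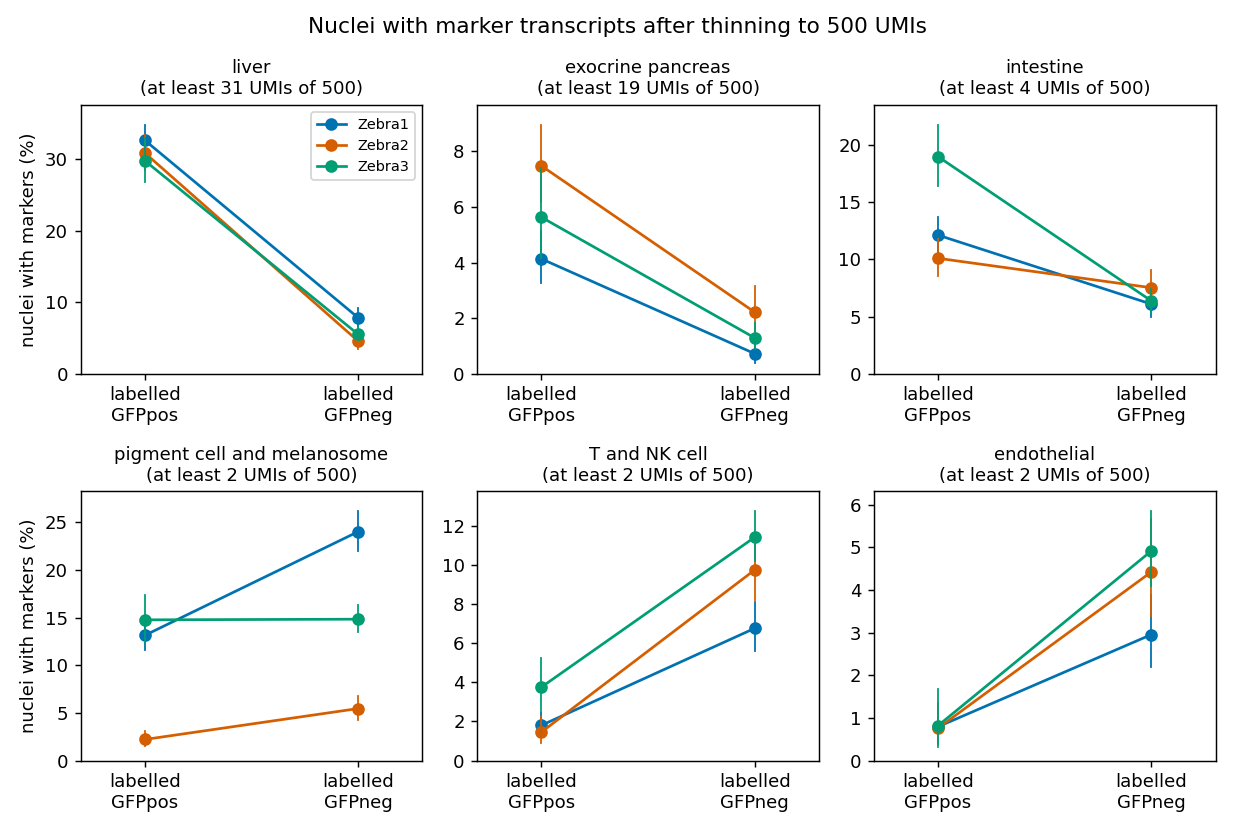
Percent of nuclei with markers of 6 cell types after thinning to 500 UMIs (y axes) by fish and gate label, with bars for the 95% Clopper-Pearson intervals. Nuclei marked as liver, pancreas or intestine had higher shares among those labelled GFPpos in all 3 fish, and the shares of those marked as T and NK cell or endothelial were lower.

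Pigment cell nuclei of both gates could also be compared with each other. A nucleus was taken as one with pigment markers if it had at least 2 UMIs of the pigment list and more of it than of any other cell type list, which gave nuclei numbering 176 against 390 in Zebra1, 10 against 36 in Zebra2 and 65 against 273 in Zebra3. The Zebra2 GFPpos fraction, with 10, fell under the minimum of 20 and was left out, so 2 fish were compared and Zebra2 GFPneg stayed in the fit without a pair. Median UMIs were 2202.5 against 2163 in Zebra1, 4103 against 2324 in Zebra2 and 3790 against 2266 in Zebra3, so GFPpos-labelled pigment nuclei of Zebra3 were deeper. Of 7364 genes tested 47 were called (0.638%), of which 31 were called higher (0.421%) and 16 lower (0.217%) in those labelled GFPpos, and 46 of the 47 had the same direction in both fish after TMM scaling. Without the fish block edgeR called 0 (48 at an unadjusted p under 0.05), and DESeq2 called 1 higher and 0 lower. After thinning each nucleus to 500 UMIs 4 were higher and 0 lower of 1875 genes tested.

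The 10 largest rises had log2 fold changes from 1.81 to 2.51, and 4 of them are described here. The glypican gene gpc1b, a heparan sulfate proteoglycan of the cell surface, was at 131 against 22.5 CPM in Zebra1, 676 against 134 CPM in Zebra3 and 343 CPM in Zebra2 GFPneg (log2 fold change 2.39 ± 0.32 (SE), adjusted p = 4.84e-10 by edgeR). Zebra2 GFPneg, without a pair, lay above both Zebra1 fractions of gpc1b, so the difference is one within fish. The actin regulator gene phactr3a was at 294 against 57.5 CPM in Zebra1, 629.6 against 221 CPM in Zebra3 and 405 CPM in Zebra2 GFPneg (log2 fold change 1.88 ± 0.30 (SE), adjusted p = 2.61e-06 by edgeR). The adhesion gene cadm4 was at 95.8 against 22.5 CPM in Zebra1, 138 against 35.9 CPM in Zebra3 and 10.4 CPM in Zebra2 GFPneg (log2 fold change 1.99 ± 0.37 (SE), adjusted p = 8.80e-05 by edgeR). For cadm4 both GFPpos-labelled values were above all 3 GFPneg-labelled ones. The thioredoxin gene txn, of the redox defense, had a log2 fold change of 1.81 ± 0.41 (edgeR adjusted p = 0.00600).

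Matrix genes were among the calls as well. Of the fibroblast and matrix list 2 of 8 tested rose, and none fell. This list also helped choose the nuclei, since each had to hold fewer UMIs of it than of the pigment list. Levels of its genes here are therefore limited by that choice. The matrix glycoprotein gene sparc was at 46.8 against 6.76 CPM in Zebra1, 115 against 58.9 CPM in Zebra3 and 10.4 CPM in Zebra2 GFPneg (log2 fold change 1.53 ± 0.40 (SE), adjusted p = 0.0268 by edgeR). The collagen VI gene col6a3 was at 105 against 18.0 CPM in Zebra1, 1278 against 776 CPM in Zebra3 and 31.2 CPM in Zebra2 GFPneg (log2 fold change 1.31 ± 0.33 (SE), adjusted p = 0.0191 by edgeR). The collagen chaperone gene serpinh1b, named after its values were seen, was at 22.3 against 0 CPM in Zebra1, 99.8 against 40.2 CPM in Zebra3 and 10.4 CPM in Zebra2 GFPneg (log2 fold change 1.81 ± 0.46 (SE), adjusted p = 0.0191 by edgeR). Each of the 3 was higher for GFPpos in both fish.

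The largest fall was of adamtsl3, a secreted matrix protein gene, at 4.45 against 21.4 CPM in Zebra1, 0 against 44.5 CPM in Zebra3 and 41.6 CPM in Zebra2 GFPneg (log2 fold change -3.31 ± 0.82 (SE), adjusted p = 0.0154 by edgeR). Its level of 0 in Zebra3 GFPpos means that the fitted fold rests on a fraction with no UMI. The homeobox gene alx4a, which acts in iridophores, was at 4.45 against 10.1 CPM in Zebra1, 80.6 against 313 CPM in Zebra3 and 93.6 CPM in Zebra2 GFPneg (log2 fold change -1.88 ± 0.42 (SE), adjusted p = 0.00457 by edgeR), with far higher levels in Zebra3 than in Zebra1. As alx4a is on the iridophore list, its values also helped choose the nuclei. The sphingosine-1-phosphate transporter gene spns2 and the sialyltransferase gene st6gal2a had log2 fold changes of -1.95 ± 0.46 and -1.65 ± 0.38.

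Few genes of any kind were called in these nuclei (0.638%), so lists of this size could hold no call by that share alone, and the following counts say little about them. BRAF and EGFP had log2 fold changes of 0.01 ± 0.34 and -0.06 ± 0.30 (edgeR adjusted p = 0.994 and 0.977). Of 11 neural crest factors tested, 14 MAPK feedback genes, 9 ETS factors and 8 cilium genes, 0 were called by edgeR (at an unadjusted p under 0.05, 1 crest higher and 0 lower, 1 MAPK higher and 2 lower, 0 ETS higher and 0 lower and 1 cilium higher and 0 lower), at medians of -0.38, -0.16, -0.14 and 0.25 against -0.04 for all genes. Of 14 synaptic adhesion genes tested 0 were called by edgeR, with 0 higher and 7 lower at an unadjusted p under 0.05 (median -0.74). Of all 7364 genes 316 were higher and 376 lower at that unadjusted p. The crest gene pax3a was at 1519 against 2021 CPM in Zebra1, 1090.4 against 1376 CPM in Zebra3 and 2152 CPM in Zebra2 GFPneg (-0.38 ± 0.35). Of the liver list 0 of 17 tested were called by edgeR in these nuclei (0 higher and 0 lower at an unadjusted p under 0.05), with fabp10a at 207 against 206 CPM in Zebra1, 180.4 against 158 CPM in Zebra3 and 198 CPM in Zebra2 GFPneg (0.08 ± 0.29). The liver list helped choose the nuclei, since each had to hold fewer UMIs of it than of the pigment list. Nuclei with much liver RNA were thus left out of both gates beforehand, and no conclusion on liver RNA is drawn.

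**Figure D5:**
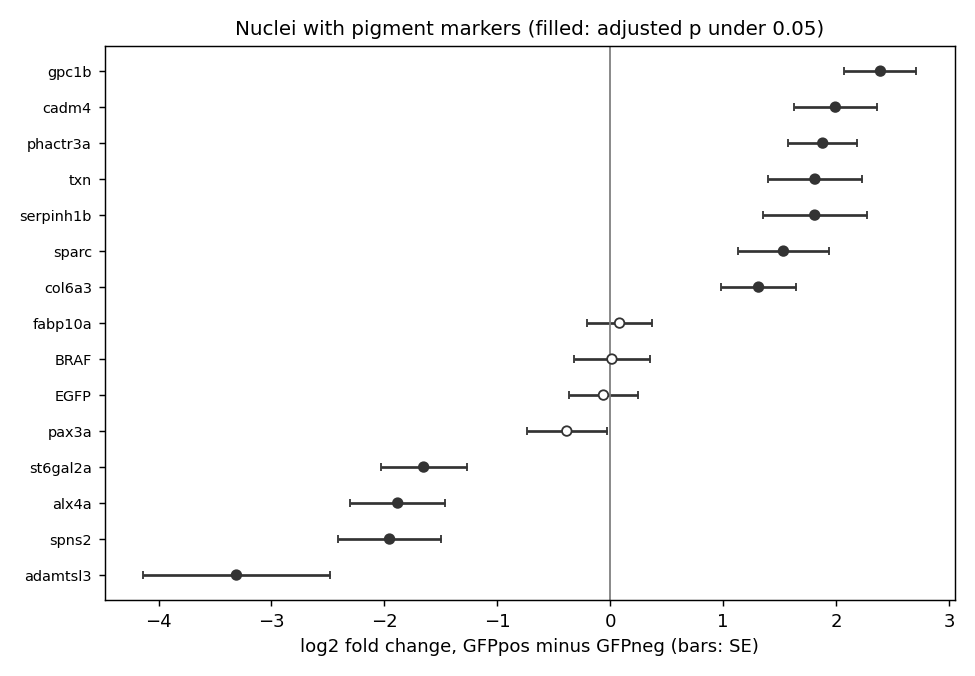
Log2 fold change of GFPpos over GFPneg with its SE (x axis) in nuclei with pigment markers, for genes whose values in these nuclei are given in the text (rows; filled points passed the test at an edgeR adjusted p of 0.05 and open points did not). Points run from -3.31 for adamtsl3 to 2.39 for gpc1b, in a fit over 2 fish, and both transgenes, pax3a and fabp10a are open points. The marker lists that hold fabp10a, sparc, col6a3 and alx4a helped choose these nuclei.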

How the data were processed

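One single-nucleus library was analysed. The values deposited by the authors are UMI counts per gene or hashtag and barcode, unfiltered, from Cell Ranger 5.0.1 by the submitters' processing notes (the matrix header names version 4) on GRCz10 with BRAF and EGFP features added. Each count is a captured molecule, so amplification does not inflate it. Gene UMIs of nuclei with exactly 1 positive hashtag were summed per fish and gate, giving 3251829 to 37898757 UMIs per GFPpos fraction and 3496208 to 5401395 per GFPneg fraction. Multiplets within 1 hashtag stay in, since no doublet caller was run. Sums were tested in R 4.3.3 with edgeR 4.0.16 (filterByExpr, TMM, quasi-likelihood, fish as a block, Benjamini-Hochberg 0.05), and DESeq2 1.42.0 was an alternative. The SE is the log2 fold change over the square root of the F statistic. Where the gates come from the same animal the fish is the pair, and the deviations of paired sums correlated at 0.400, 0.637 and 0.450 over all nuclei, 0.706, 0.670 and 0.514 in the capped set and 0.715 and 0.628 in pigment nuclei.

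Genes named were the transgenes, the 10 largest called rises and falls with 1 direction in all fish and at least 50 UMIs, and the 4 members of each list with the most UMIs. Members and lists were chosen with earlier results of these data known. Alternatives covered the scaling, the low-count filter, the block, each fish left out, the hashtag cut, depth, mitochondrial share and thinning. Some settings combined with the capped set, the cut of 3 times free RNA and the sets without nuclei rich in other transcripts were added after seeing the data. One gene among the falls in pigment nuclei is not reported here. Called members of a list beyond this rule are named after their values were seen. Free RNA is the profile of barcodes under 100 UMIs. Scripts were tested on simulated counts with known changes. The fit over all nuclei recovered 2 of 68 genes changed by a log2 of 1, 20 of 66 changed by 2 and 65 of 66 changed by 4. The fit of pigment nuclei recovered 15 of 68, 60 of 66 and 65 of 66, and each fit made 7 false calls. A gene not called over all nuclei is therefore not shown to be unchanged. No sequences were used. The sections and dissociated cells of the series were not analysed here beyond counting shared barcodes.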

Additional observations from a re-analysis of the deposited data

Results flagged for a closer look

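Nuclei with several positive hashtags, which enter no comparison between gates, held BRAF at 126 CPM and EGFP at 36.0 CPM, above the level of the Zebra2 GFPneg fraction (75.7 and 12.2 CPM) and below those of the Zebra1 and Zebra3 GFPneg fractions. Their median depth was 4168 UMIs, against 2206 for nuclei with 1 hashtag. Of the 1383 with 2 hashtags, 260 carried both gates of 1 fish and 621 the same gate of 2 fish.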

How the results depend on the processing

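Over all nuclei, counts of genes called higher and lower (28 and 676) moved to 3300 and 3366 with DESeq2, 3 and 2425 with library totals, 183 and 830 without a filter, 366 and 2186 at a hashtag cut of 3 times the median, 4 and 304 with at least 1000 UMIs, 35 and 759 with at most 5% mitochondrial UMIs, 1654 and 931 after thinning and 2917 and 2345 without nuclei over 20000 UMIs. Leaving out 1 fish gave 0 to 6314 higher and 0 to 6704 lower over both sets of nuclei. Without the replicate block, that is without pairing the gates of a fish, 0 and 0 genes passed (4949 at an unadjusted p under 0.05). Settings added after seeing the data, all without nuclei over 20000 UMIs, gave 660 and 7302 with library totals, 2086 and 1750 with DESeq2, 197 and 18 without the replicate block and 2347 and 1708 without nuclei rich in liver or pancreas transcripts. The cause of these changes was not tested. After thinning, 10517 genes entered the test, against 17546 in the main fit.

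The transgene log2 fold changes over all nuclei (BRAF -0.72, EGFP -0.65, not called) changed sign without nuclei over 20000 UMIs (0.23 and 0.28), after thinning (0.08 and 0.09), and, without nuclei over 20000 UMIs, when liver- or pancreas-rich nuclei were also left out (0.40 and 0.49), with DESeq2 (0.20 and 0.25) or without the replicate block (0.22 and 0.23). Leaving out 1 fish over all nuclei gave -1.13 to -0.25 for BRAF and -0.92 to -0.15 for EGFP, and without nuclei over 20000 UMIs 0.15 to 0.29 and 0.18 to 0.37. Over all nuclei both were past the threshold without Zebra3, in a fit that called 6314 genes higher and 6704 lower of 19900 tested. In pigment nuclei (31 and 16 called), counts were 1 and 0 with DESeq2, 20 and 17 without a filter, 0 and 0 without the replicate block, 15 and 11 at the hashtag cut of 3, 4 and 0 after thinning, 21 and 1 with at least 3 pigment UMIs making 0.3% of UMIs (added after seeing the data), and 33 and 12 without Zebra2. There BRAF was -0.08 without a filter, and EGFP was 0.28 without the replicate block and 0.33 under the added choice of nuclei. Leaving out Zebra1 or Zebra3 could not be fitted there. Over all settings, named calls kept direction and threshold 277 times and fell short of the threshold 92 times over all nuclei, against 135 and 64 times in pigment nuclei, and none of them changed sign. These genes were chosen as called with 1 direction in all fish, and the settings draw on the same library. A kept sign is therefore no independent support. Depth limits the pigment comparison, with 36 nuclei in its smallest fraction (Zebra2 GFPneg) and 65 in the smallest of a pair.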

Other observations

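Nuclei rich in muscle transcripts (at least 3 times the share in free RNA), a set chosen after the data were seen, were a set in which both transgenes were higher for GFPpos in every fish. They numbered 48 against 42 in Zebra1, 259 against 190 in Zebra2 and 105 against 341 in Zebra3. EGFP was at 487 against 196 CPM in Zebra1, 30.8 against 16.5 CPM in Zebra2 and 143 against 26.2 CPM in Zebra3 in them, and an EGFP UMI was found in 58.3% against 26.2% in Zebra1, 9.27% against 2.11% in Zebra2 and 21.0% against 3.81% in Zebra3. BRAF was at 1424 against 685 CPM in Zebra1, 110.4 against 96.1 CPM in Zebra2 and 443 against 106 CPM in Zebra3. Median depths were 2729.5 against 1284 UMIs in Zebra1, 4383 against 1628 UMIs in Zebra2 and 1325 against 1557 UMIs in Zebra3, deeper for GFPpos in Zebra1 and Zebra2 and not in Zebra3. After thinning to 500 UMIs an EGFP UMI was found in 20.8% against 7.14% in Zebra1, 1.93% against 1.05% in Zebra2 and 4.76% against 2.05% in Zebra3, and a BRAF UMI in 31.2% against 28.6% in Zebra1, 2.70% against 2.63% in Zebra2 and 16.2% against 3.81% in Zebra3. The order was the same in each fish, but the 95% exact binomial intervals, which cover counting error only, overlapped in every fish for EGFP and in Zebra1 and Zebra2 for BRAF.

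Calls of the remaining lists in the capped set are read beside 16.8% of all genes called higher and 13.5% called lower. Of the genes for synaptic adhesion 7 of 24 tested fell, among them the adhesion genes cadm1a and ncam1a (median -0.54), a count of 2 to 10 with 1 fish left out and 0 without the fish block. The adhesion gene cadm1a was at 237 against 1041 CPM in Zebra1, 15.5 against 99.3 CPM in Zebra2 and 58.3 against 149 CPM in Zebra3 (log2 fold change -1.37 ± 0.27 (SE), adjusted p = 0.00191 by edgeR). Of the p53 target list, in fish without p53, 1 rose (ccng1) and 2 fell (ccng2 and sesn1) of 16. Of the immediate early list 1 rose (junbb) and 2 fell (fosb and klf2a) of 17, and of the neuron list 1 rose (snap25a) and 2 fell (rbfox3a and snap25b) of 8. Of the spermatid and motile axoneme list 4 of 8 fell, and of the myogenic list 1 rose (pax7b) and 3 fell (mef2ca, mef2d and pax3a) of 6.

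Nuclei without a positive hashtag were shallow, at a median of 1146 UMIs, and held BRAF at 54.9 and EGFP at 12.7 CPM.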
